A study of Homo sapiens with 30 samples.

Results

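The 10 genes described here encode transporters that carry glutamate and other amino acids across the plasma membrane: SLC38A2, SLC3A2, SLC7A11, SLC7A5, SLC7A1, SLC1A5, SLC1A4, SLC1A3, SLC1A1 and SLC6A9. They were chosen by name, and all 10 were found among the 26801 rows of the deposited expression table. Their levels were measured by RNA sequencing of poly(A) RNA in A549, an epithelial line from a human non-small cell lung cancer. The 30 libraries form 10 groups of 3, and in each of 5 backgrounds 1 group had been exposed to a magnetic field (treatment label "2H", here EX) and 1 had not (NE). The backgrounds are RSRP1 knockout cells (KOA), knockout cells with the name part iR (iR_KOA), knockout cells with iR and D3 (iR_KOA_D3), wild-type cells with iR (iR_WTA) and wild-type cells with iR and D3 (iR_WTA_D3). The labels leave iR, D3 and the strength of the field unexplained, and among the labelled samples there was no wild-type group without iR. Whether the knockout cells are 1 clone, and whether replicates came from separate cultures, is also not stated, so p-values measure only the spread between these samples. The question the groups address is how magnetic exposure changes expression with and without RSRP1.

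Amino acid transporters work as pairs and relays. SLC3A2, the heavy chain known as CD98, holds a light chain at the cell surface: with SLC7A11 (xCT) it imports cystine in exchange for glutamate, and with SLC7A5 (LAT1) it imports leucine and other large neutral amino acids in exchange for glutamine. SLC38A2 (SNAT2) and SLC1A5 (ASCT2) bring glutamine and small neutral amino acids in with sodium, SLC1A4 (ASCT1) is the related neutral exchanger, SLC1A3 (EAAT1) and SLC1A1 (EAAT3) are high-affinity glutamate importers, SLC7A1 (CAT-1) carries arginine and lysine, and SLC6A9 (GlyT1) takes up glycine. In tumour cells cystine import supplies glutathione synthesis, and several of these genes are known targets of the amino acid and stress response factor ATF4 and of the oxidative stress factor NFE2L2.

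RSRP1 itself, the targeted gene, stood at 2.09 to 7.95 FPKM (read fragments scaled by transcript length and library depth) in the 18 knockout libraries and 37.4 to 63.4 FPKM in the 12 wild-type libraries. The read totals recovered from the FPKM steps lay between 34620445 and 38939339 per library, a ratio of 1.125. All 10 epithelial and A549 marker genes reached 1 FPKM in some library, with a summed level of 6740 to 9560 FPKM. However, EPCAM stayed low at 0.402 to 1.85 FPKM and KRT19 ran from 0.0194 to 22.8 FPKM. The leukocyte list summed to 23.7 to 39.6 FPKM, nearly all of it CD68, while PTPRC stayed at or below 0.0411. The endothelial list summed to 0.0253 to 1.32 FPKM, with CDH5 reaching 1.29 and PECAM1 at or below 0.0114. The fibroblast list summed to 0.463 to 3.73 FPKM, with COL1A1 reaching 3.71.

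The promoters below are shown because SLC1A3, SLC7A1 and SLC7A5 had the largest drops in level in the knockout, and because these windows hold no annotated exon of GENCODE v29. Each is the 250 bases before the RefSeq start site on the gene's strand (GRCh38.p14), for SLC1A3 at chr5:36596338-36596587 on the plus strand, SLC7A1 at chr13:29595689-29595938 on the minus strand and SLC7A5 at chr16:87869508-87869757 on the minus strand. Capitals mark a match to the C/EBP-ATF composite core TGATGNAA or to the antioxidant response core TGACNNNGC.
SLC1A3: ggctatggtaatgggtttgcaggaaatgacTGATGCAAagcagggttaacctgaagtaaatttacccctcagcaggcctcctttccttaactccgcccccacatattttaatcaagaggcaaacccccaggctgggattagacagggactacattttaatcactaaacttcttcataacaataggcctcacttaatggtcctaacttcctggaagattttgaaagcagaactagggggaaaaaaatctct
SLC7A1: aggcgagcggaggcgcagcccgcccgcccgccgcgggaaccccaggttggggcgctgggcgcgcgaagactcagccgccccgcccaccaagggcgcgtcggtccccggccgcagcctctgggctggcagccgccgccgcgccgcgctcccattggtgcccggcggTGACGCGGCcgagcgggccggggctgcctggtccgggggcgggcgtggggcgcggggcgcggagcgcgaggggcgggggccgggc
SLC7A5: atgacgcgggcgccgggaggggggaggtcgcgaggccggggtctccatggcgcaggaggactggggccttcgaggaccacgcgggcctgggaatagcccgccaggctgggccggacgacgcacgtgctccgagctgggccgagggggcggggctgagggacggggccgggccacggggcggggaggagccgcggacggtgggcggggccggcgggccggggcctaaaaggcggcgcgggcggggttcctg
Promoters were matched for 9 members, in 16 windows because some genes have several start sites, and SLC7A11 had no entry. TGATGNAA, read on both strands, was found in 2 of those windows, 1 each of SLC1A3 and SLC1A5, against 3.14% of the 35116 promoter windows of the table. TGACNNNGC was found in 4 windows, of SLC1A3, SLC1A5, SLC3A2 and SLC7A1, against 10.9% of all windows. The heat shock pair TTCNNGAA was found in 2 windows, of SLC1A3 and SLC1A4, against 6.62%, and GAANNTTC in 0, against 5.78%. SLC38A2 had none of the 4 in its window, and sequence after its start site was not searched. These matches describe letters in short windows and say nothing of binding.

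The genes lie on 10 chromosomes (RefSeq, GRCh38.p14), with SLC7A11 at chr4:138164097-138242349, SLC3A2 at chr11:62856109-62888860, SLC7A5 at chr16:87830023-87869507, SLC7A1 at chr13:29509414-29595688, SLC1A4 at chr2:64988479-65023865, SLC1A5 at chr19:46774883-46788594, SLC1A1 at chr9:4490468-4587469, SLC1A3 at chr5:36596588-36688334, SLC38A2 at chr12:46358188-46372773, SLC6A9 at chr1:43996483-44031462. On the per-length FPKM scale SLC7A5 was the most abundant at 175 to 560 FPKM, followed by its heavy chain SLC3A2 at 177 to 375 FPKM. SLC38A2 lay at 60.6 to 161 FPKM, SLC1A5 at 66.6 to 124 FPKM and SLC7A11 at 30.0 to 54.8 FPKM. SLC7A1 (5.28 to 18.3 FPKM) and SLC1A4 (3.84 to 9.33 FPKM) were lower, and SLC6A9 (1.49 to 3.04 FPKM) and SLC1A1 (0.72 to 3.30 FPKM) were lowest among those present in every library. SLC1A3 had 2 states: 20.5 to 37.0 FPKM in the 12 wild-type libraries, and 0 to 0.023 FPKM in the 18 knockout libraries. It passed the expression filter (1 FPKM in 3 libraries) through the wild-type libraries alone, while the other 9 members passed with values in both genotypes.

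**Figure D1:**
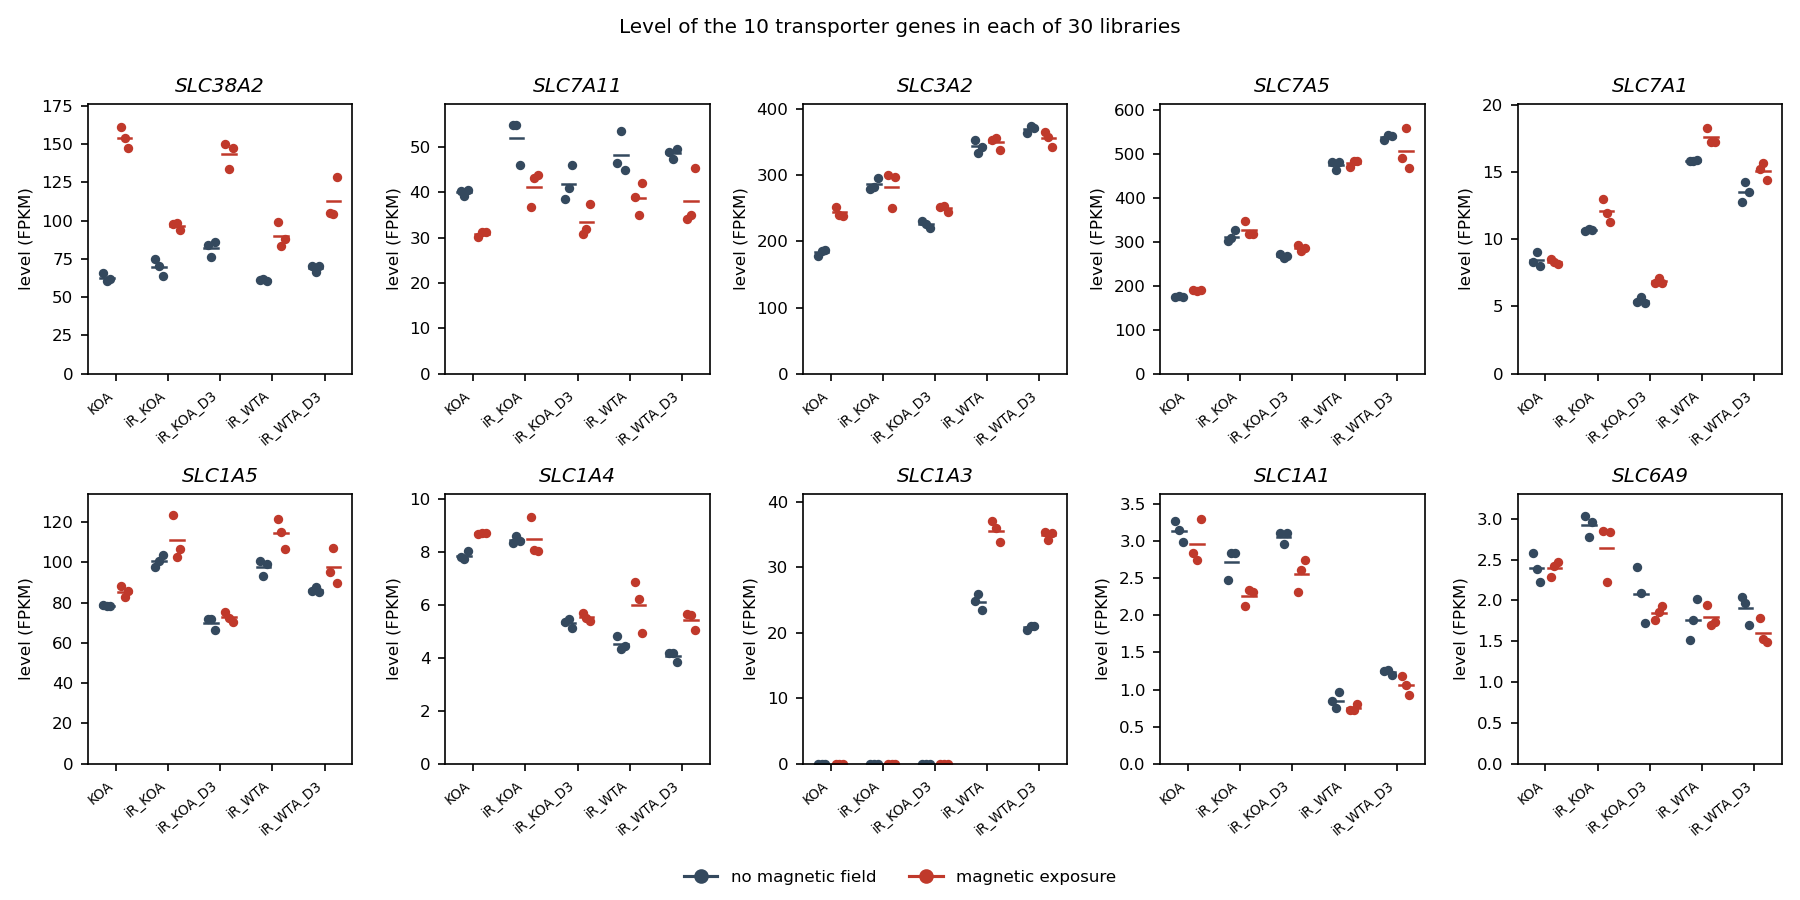
Level of each member (FPKM, linear axis from 0) in every library, by background; points are libraries, horizontal lines are means of 3, dark blue is unexposed and red is exposed. SLC38A2 was higher and SLC7A11 lower in all 15 exposed libraries than in any unexposed library of the same background, and SLC1A3 was near 0 in all knockout libraries. How many of all genes tested were likewise apart by exposure was not counted.

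Exposure moved the transporters in opposite directions. SLC38A2 rose in all 5 backgrounds and SLC7A11 fell in all 5, each with no overlap between exposed and unexposed libraries. The share of all genes tested that were apart in this way was not counted. Some related genes given below, such as SLC6A6 and SLC38A10, were also called in all 5. The other 8 members were called in some backgrounds or in none. Of the 10 members, 3 were higher and 1 lower in KOA, where 18.8% of the 12086 genes tested were called higher and 22.7% lower. In iR_KOA 2 were higher and 2 lower, against 13.1% and 22.3% of all genes. In iR_KOA_D3 3 were higher and 2 lower, against 17.3% and 27.8%. SLC1A3 is among the 10 members but had almost no reads in the knockout, so it could not be called in these backgrounds. In iR_WTA 5 were higher and 1 lower, against 11.4% and 17.2%, and in iR_WTA_D3 again 5 and 1, against 15.3% and 26.5%. The members' median difference lay between 0.01 and 0.08 log2 units in the 5 backgrounds, beside -0.05 to -0.03 for all genes tested. A call is an adjusted p below 0.05 in limma's moderated test on log2(FPKM + 1), with Benjamini-Hochberg adjustment over all genes tested, and differences are exposed minus unexposed on that scale. In these bulk libraries a change in transcripts per cell and a change in the share of cells that express a gene cannot be told apart.

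**Figure D2:**
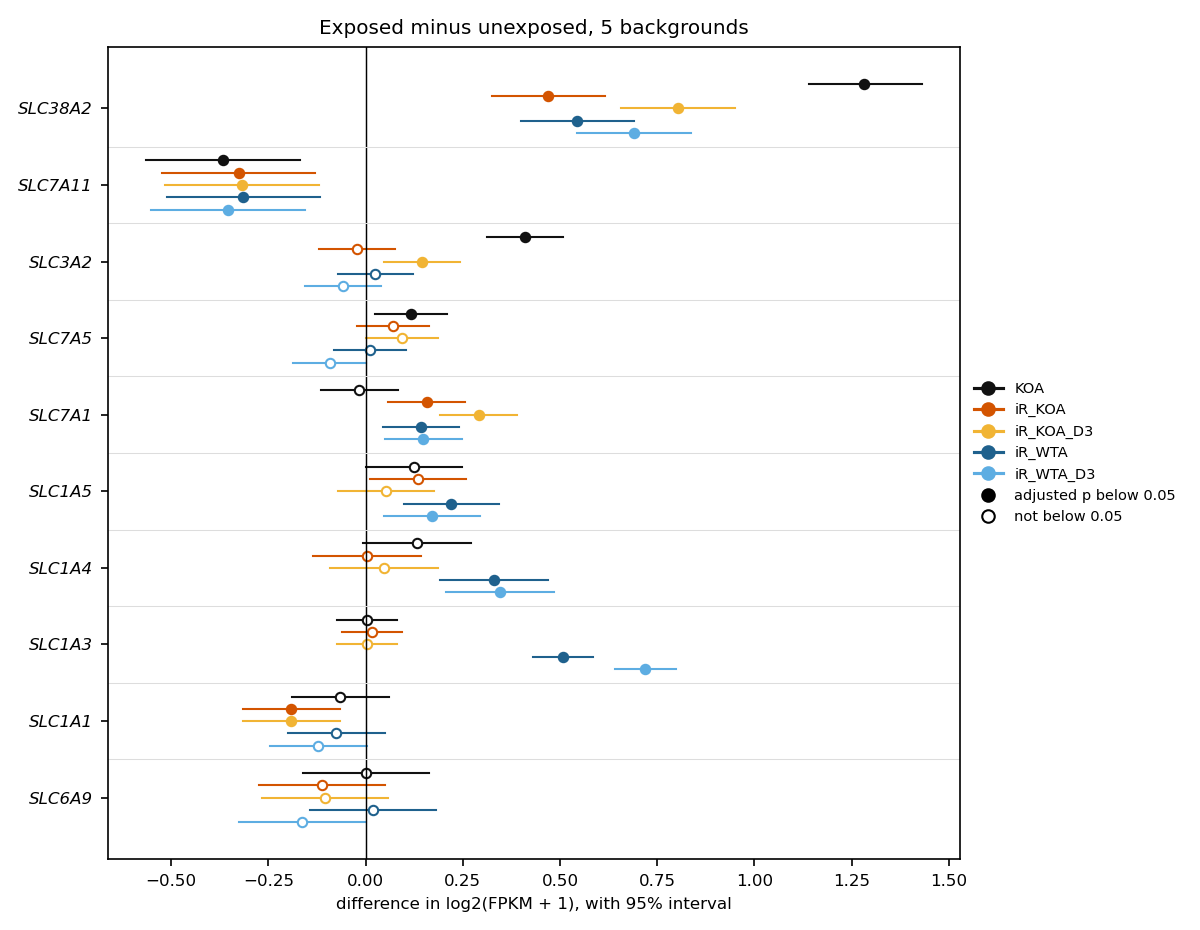
Exposed minus unexposed difference in log2(FPKM + 1) for each member in 5 backgrounds (colours), with the 95% interval of the limma fit; filled points have an adjusted p below 0.05. All 5 SLC38A2 points lie above 0, from 0.47 to 1.28, and all 5 SLC7A11 points below 0, from -0.37 to -0.31.

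SLC38A2, the sodium-coupled importer of glutamine and alanine, had the largest exposure difference of the members in 4 backgrounds, while in iR_WTA_D3 SLC1A3 stood slightly above it (0.72 against 0.69). In KOA it stood at 65.8, 60.6 and 61.8 FPKM unexposed and 161, 154 and 147 FPKM exposed, a difference of 1.28 (SE 0.07, adjusted p = 2.16e-13). In iR_KOA the unexposed libraries held 74.7, 70.3 and 64.1 FPKM and the exposed ones 97.8, 98.6 and 93.8 FPKM, a difference of 0.47 (adjusted p = 1.65e-05). The exposed libraries were the highest of each background, and the step was clearly larger without iR. In iR_KOA_D3 the level went from 84, 75.9 and 85.7 to 150, 134 and 148 FPKM, a difference of 0.80 (adjusted p = 2.12e-09). In iR_WTA it went from 61.3, 62.1 and 60.6 to 99.1, 83.3 and 88.2 FPKM (0.54, adjusted p = 2.42e-06), and in iR_WTA_D3 from 70.4, 66.3 and 70.6 to 105, 104 and 128 FPKM (0.69, adjusted p = 3.08e-08). The ratio of mean FPKM ran from 1.39 in iR_KOA to 2.46 in KOA. The test of the difference, iR_KOA minus KOA, gave -0.81 (SE 0.10, adjusted p = 6.05e-06). The exposure difference was 0.33 larger with D3 than without it in the iR knockout, which missed the threshold (adjusted p = 0.0569), though it passed with the replicate block (adjusted p = 0.0423), with voom on recovered reads (0.0394), without iR_KOA_D3_EX replicate 2 (difference 0.385) and without iR_KOA_NE replicate 3 (0.392). Between the genotypes the exposure differences of SLC38A2 were -0.08 apart with iR (95% interval -0.28 to 0.13) and 0.11 with iR and D3 (-0.09 to 0.32), neither of which passed (adjusted p = 0.842 and 0.675).

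SLC7A11, the cystine and glutamate exchanger, was the one member called lower with exposure in all 5 backgrounds. KOA went from 40.3, 39.3 and 40.5 to 30, 31.2 and 31.2 FPKM, a difference of -0.37 (SE 0.10, adjusted p = 0.00323). In iR_KOA the level was 54.8, 54.8 and 46 FPKM unexposed and 36.7, 43 and 43.7 FPKM exposed (-0.33, adjusted p = 0.0101). Replicates were wider apart here than in KOA, but no exposed library reached an unexposed one. In iR_KOA_D3 it was 38.5, 40.9 and 46.1 and 30.9, 31.9 and 37.4 FPKM (-0.32, adjusted p = 0.00862). In iR_WTA it was 46.4, 53.4 and 45 and 38.9, 34.9 and 42 FPKM (-0.31, adjusted p = 0.0151), and in iR_WTA_D3 48.8, 47.2 and 49.6 and 34, 34.9 and 45.2 FPKM (-0.35, adjusted p = 0.00424). The mean FPKM fell to between 0.77 and 0.80 of the unexposed level in all 5 backgrounds. None of the 5 tests of whether this difference depended on genotype, D3 or iR passed, and their estimates lay between -0.04 and 0.04, each with an SE of 0.14 (lowest adjusted p = 0.918). The call ended without iR_KOA_EX replicate 1 (-0.248), without iR_KOA_D3_EX replicate 1 (-0.265) or iR_KOA_D3_NE replicate 3 (-0.248), and without iR_WTA_EX replicate 2 (-0.245) or iR_WTA_NE replicate 2 (-0.241), each in its own background and with the direction kept. An antisense gene, SLC7A11-AS1, shares 865 exonic bases with SLC7A11 and reached at most 0.495 FPKM, and reads of the pair cannot be told apart where the counting does not use strand.

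SLC3A2, the common heavy chain, and SLC7A5, its leucine-carrying partner, did not follow SLC7A11. SLC3A2 rose in KOA from 177, 185 and 187 to 252, 240 and 239 FPKM (0.41, SE 0.05, adjusted p = 1.37e-07), with no overlap. It also rose in iR_KOA_D3, from 231, 227 and 220 to 252, 253 and 245 FPKM (0.14, adjusted p = 0.0144), a call that ended without iR_KOA_D3_NE replicate 3 (0.125, adjusted p = 0.0598) and under quantile normalization (0.072, adjusted p = 0.0935). In iR_KOA, iR_WTA and iR_WTA_D3 its differences were -0.02, 0.03 and -0.06 and did not pass. The exposure difference of SLC3A2 was smaller in iR_KOA than in KOA by the direct test (-0.43, SE 0.07, adjusted p = 0.00014). SLC7A5 passed in KOA, at 175, 177 and 175 FPKM unexposed and 192, 189 and 191 FPKM exposed (0.12, adjusted p = 0.0392). That call ended when any 1 of the 6 KOA libraries was left out (0.114 to 0.123), under quantile normalization (0.109, adjusted p = 0.0918) and with no filter on low values (adjusted p = 0.0701). In the other 4 backgrounds the SLC7A5 differences ran from -0.09 to 0.09 and none passed. In iR_WTA_D3 the 3 exposed SLC7A5 values were 491, 560 and 469 FPKM against 533, 543 and 541 unexposed, and without exposed replicate 2 the difference was -0.167 and passed (adjusted p = 0.00105). Without that library the tests of SLC7A5 exposure by D3 in the wild type (-0.179) and by genotype with iR and D3 (0.26) also passed, while with it they gave -0.10 and 0.19 and did not.

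Transcript levels of the heteromer partners are given here as a ratio of FPKM within each library, a description without a test. Protein was not measured, so the balance of the heteromers themselves cannot be read from these ratios. The SLC7A11 to SLC3A2 ratio in KOA was 0.227, 0.212 and 0.217 unexposed and 0.119, 0.130 and 0.131 exposed. In iR_KOA it was 0.196, 0.194 and 0.155 unexposed and 0.122, 0.172 and 0.147 exposed, so those groups overlapped. The mean ratio was lower with exposure in all 5 backgrounds, and the groups were apart in 3 of them, KOA, iR_KOA_D3 and iR_WTA. The mean SLC7A5 to SLC3A2 ratio in unexposed cells was 0.960 in KOA_NE, 1.09 in iR_KOA_NE, 1.39 in iR_WTA_NE and 1.46 in iR_WTA_D3_NE. In KOA alone the exposed libraries (0.762, 0.788 and 0.801) all lay below the unexposed ones (0.987, 0.957 and 0.937). The SLC38A2 to SLC7A11 ratio, which is not that of a heteromer, went in KOA from 1.63, 1.54 and 1.52 to 5.36, 4.93 and 4.72. It was higher in every exposed library than in any unexposed library of its background. That separation follows from the rise of SLC38A2 and the fall of SLC7A11 given above and is not a further result.

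**Figure D3:**
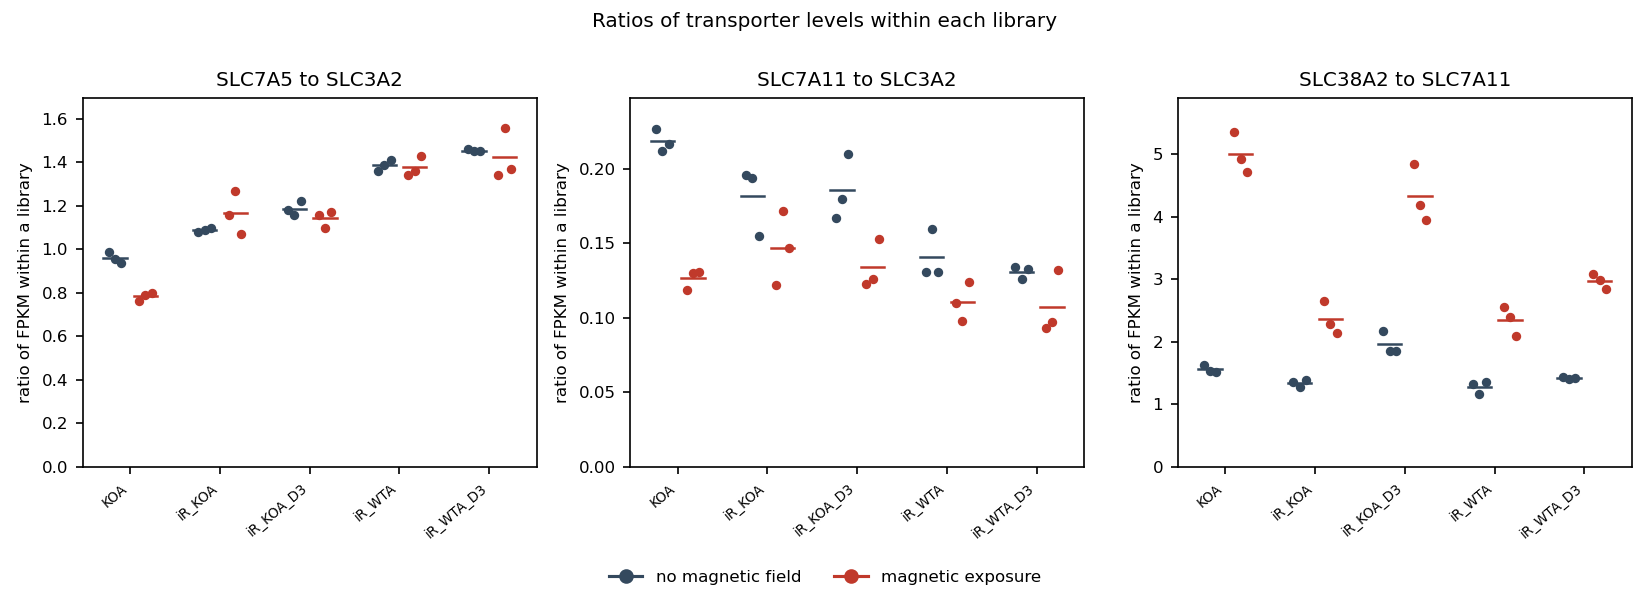
Ratio of FPKM within each library for SLC7A5 to SLC3A2, SLC7A11 to SLC3A2 and SLC38A2 to SLC7A11 (linear axes from 0), by background; points are libraries, lines are means of 3, dark blue is unexposed and red is exposed. The SLC38A2 to SLC7A11 ratio is higher with exposure in every background, from a mean of 1.57 to 5.00 in KOA and from 1.28 to 2.34 in iR_WTA. This follows from the rise of SLC38A2 and the fall of SLC7A11.

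SLC7A1, the carrier of arginine and lysine, rose with exposure in the 4 backgrounds with iR. The largest difference was in iR_KOA_D3, from 5.32, 5.69 and 5.28 to 6.77, 7.08 and 6.74 FPKM (0.29, SE 0.05, adjusted p = 2.43e-05). In iR_KOA the libraries went from 10.6, 10.8 and 10.7 to 13, 12 and 11.2 FPKM (0.16, adjusted p = 0.0129). In iR_WTA and iR_WTA_D3 the differences were 0.14 (adjusted p = 0.0271) and 0.15 (adjusted p = 0.015). In KOA the exposed and unexposed values overlapped, at 8.56, 8.27 and 8.15 and 8.29, 9.04 and 8.01 FPKM (-0.02, adjusted p = 0.817), but the direct test of iR_KOA minus KOA gave 0.17 (adjusted p = 0.162). The SLC7A1 call ended without iR_KOA_EX replicate 1 (0.106), without iR_WTA_EX replicate 1 (0.116) or any 1 unexposed iR_WTA library (0.141 to 0.145), and without iR_WTA_D3_EX replicate 2 (0.122) or iR_WTA_D3_NE replicate 1 (0.111). With only the 2 compared groups in the fit it also ended in iR_KOA (adjusted p = 0.111) and iR_WTA_D3 (adjusted p = 0.0883).

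The neutral amino acid exchangers SLC1A4 and SLC1A5 rose with exposure in both wild-type backgrounds. SLC1A4, which carries alanine, serine and cysteine, stood at 4.8, 4.34 and 4.45 FPKM unexposed and 6.84, 6.22 and 4.93 FPKM exposed in iR_WTA (0.33, SE 0.07, adjusted p = 0.000583). In iR_WTA_D3 it was 4.17, 4.17 and 3.84 and 5.64, 5.61 and 5.04 FPKM (0.34, adjusted p = 0.00021). Its knockout differences were 0.13 in KOA, where the groups did not overlap, 0.00 in iR_KOA and 0.05 in iR_KOA_D3, and none passed, although KOA did with only the compared groups in the fit (adjusted p = 0.0135). The direct test of knockout against wild type missed the threshold with iR (-0.33, 95% interval -0.52 to -0.13, adjusted p = 0.153) and with iR and D3 (-0.30, -0.49 to -0.10, adjusted p = 0.117), so a dependence of the SLC1A4 response on RSRP1 was not shown. Without iR_WTA_EX replicate 3, the lowest exposed library, the first of these was -0.441 and passed (adjusted p = 0.00276). SLC1A5, the glutamine importer, went from 101, 93.4 and 99.4 to 122, 115 and 106 FPKM in iR_WTA (0.22, adjusted p = 0.00684) and from 86, 87.8 and 85.2 to 95.4, 107 and 89.8 FPKM in iR_WTA_D3 (0.17, adjusted p = 0.0244). Its call ended without iR_WTA_EX replicate 1 (0.175, adjusted p = 0.0591) and without iR_WTA_D3_EX replicate 2 (0.0998), iR_WTA_D3_NE replicate 1 (0.167) or iR_WTA_D3_NE replicate 3 (0.16). In iR_KOA the SLC1A5 difference of 0.13 was not called (adjusted p = 0.083) but passed under both other scalings (0.171, adjusted p = 0.0412, and 0.155, adjusted p = 0.0254) and without iR_KOA_EX replicate 2 (0.187). In KOA and iR_KOA_D3 the SLC1A5 differences were 0.12 and 0.05 and did not pass, although KOA did with only the compared groups (adjusted p = 0.00658). SLC1A5 shares 780 exonic bases with the antisense gene AC008622.2, and SLC7A5 shares 271 with the antisense gene AC126696.2.

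Of the high-affinity glutamate importers, SLC1A3 was called with exposure in the wild type alone and SLC1A1 in the iR knockout alone. No background had a call for both. SLC1A3 could not be called in the knockout, and SLC1A1 was low in the wild type. This split of calls therefore cannot show that these genes respond in different genotypes. SLC1A3 rose with exposure in wild-type cells, from 24.8, 25.9 and 23.5 to 37, 35.9 and 33.8 FPKM in iR_WTA (0.51, SE 0.04, adjusted p = 2.6e-10). In iR_WTA_D3 it rose from 20.5, 21 and 20.9 to 35.4, 34.1 and 35.2 FPKM (0.72, adjusted p = 1.7e-13), and exposed libraries of both wild-type backgrounds ended at nearly the same level. The knockout held too few SLC1A3 reads for any exposure comparison: 14 reads over 18 libraries, with 9 libraries at 0 and at most 4 reads in 1 library. The exposure step was 0.21 larger with D3 than without it (adjusted p = 0.0389), a call that ended with a pseudocount of 0.1 (adjusted p = 0.359), with only the compared groups (0.202), with voom on recovered reads (0.0574) and without 9 of the 12 libraries, at differences of 0.177 to 0.22. SLC1A1 fell with exposure in iR_KOA, from 2.48, 2.85 and 2.84 to 2.12, 2.34 and 2.31 FPKM (-0.19, adjusted p = 0.0163), and in iR_KOA_D3, from 3.1, 2.96 and 3.12 to 2.31, 2.61 and 2.75 FPKM (-0.19, adjusted p = 0.0119). The SLC1A1 call ended without iR_KOA_EX replicate 1 (-0.161), iR_KOA_NE replicate 2 (-0.166) or iR_KOA_NE replicate 3 (-0.168), and without iR_KOA_D3_EX replicate 1 (-0.14). It also ended with only the compared groups in iR_KOA (adjusted p = 0.0842) and under quantile normalization in iR_KOA_D3 (-0.133, adjusted p = 0.0807). Its differences in KOA, iR_WTA and iR_WTA_D3 were -0.06, -0.08 and -0.12 and did not pass, so the SLC1A1 mean was lower with exposure in every background. In iR_WTA_D3 the groups did not overlap. Wild-type SLC1A1 lay at 0.72 to 1.26 FPKM, where the added 1 shrinks differences in log2(FPKM + 1). The ratios of mean FPKM were 0.887 in iR_WTA and 0.855 in iR_WTA_D3, beside 0.83 in iR_KOA, 0.837 in iR_KOA_D3 and 0.944 in KOA. SLC6A9, the glycine importer, did not pass in any background, with differences from -0.16 to 0.02. It shares 404 exonic bases with CCDC24 on the other strand, a gene at 2.36 to 4.89 FPKM, and where the counting does not use strand their shared reads cannot be told apart.

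The genotype comparison set unexposed knockout against unexposed wild-type cells, once with iR and once with iR and D3. Lower in the knockout were the glutamate importer SLC1A3, the heavy chain SLC3A2, the leucine carrier SLC7A5 and the arginine carrier SLC7A1, in both settings. Higher in both were SLC1A1, SLC1A4 and SLC38A2. With iR 4 members were higher and 4 lower, where 27.9% of all genes were called higher and 37.4% lower. With iR and D3 3 were higher and 5 lower, against 24.8% and 44.3%, so calls were common among all genes. Both counts of lower members include SLC1A3, which the filter admitted through the wild type alone. The median difference of all genes was -0.11 with iR and D3, which became -0.03 under median-of-ratios scaling. Differences are knockout minus wild type, and the loss of RSRP1 cannot be told apart from any other difference between the 2 kinds of cells.

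SLC1A3 was the extreme case. The unexposed iR wild type gave 13117 SLC1A3 reads over 3 libraries and the unexposed iR knockout 2, a ratio of 6570 after allowing for depth (95% exact interval 1820 to 54300, counting error only). With D3 the sums were 10857 and 1 reads, a ratio of 10900 (1950 to 430000). Exposed groups showed the same split, with 19073 against 8 reads and 18519 against 2 reads. On the log2(FPKM + 1) scale the differences were -4.68 and -4.44, which understate the change because the knockout sits at the floor of that scale. They are given without a test, since SLC1A3 passed the filter through the wild type alone and so had to differ. The other glutamate importer, SLC1A1, was reversed: 2.48, 2.85 and 2.84 FPKM in iR_KOA_NE against 0.841, 0.745 and 0.962 FPKM in iR_WTA_NE (1.01, SE 0.06, adjusted p = 1.3e-13), a mean ratio of 3.2. With D3 the SLC1A1 values were 3.1, 2.96 and 3.12 against 1.25, 1.26 and 1.19 FPKM (0.86, adjusted p = 2.53e-12). The higher SLC1A1 level stayed small beside the missing SLC1A3: SLC1A1 reached at most 3.30 FPKM in any library, and the lowest wild-type SLC1A3 value was 20.5 FPKM.

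Among the heteromers and the cationic carrier the drop was graded. SLC7A5 was at 302, 308 and 326 FPKM in iR_KOA_NE and 482, 464 and 483 FPKM in iR_WTA_NE, a difference of -0.61 (SE 0.05, adjusted p = 9.32e-12). With D3 it was 274, 263 and 268 against 533, 543 and 541 FPKM (-1.004, adjusted p = 2.6e-16), a mean ratio of 0.498. SLC3A2 differed less than its partner, by -0.26 (adjusted p = 2.84e-05) and -0.71 (adjusted p = 8.35e-13). SLC7A1 differed by -0.52 (adjusted p = 5.93e-10) with iR and by -1.18 (adjusted p = 3.32e-17) with iR and D3, where the knockout held 5.32, 5.69 and 5.28 FPKM and the wild type 12.8, 14.3 and 13.5 FPKM. SLC7A11 did not differ past the threshold, at 0.10 (95% interval -0.10 to 0.30) with iR and -0.21 (-0.41 to -0.02, adjusted p = 0.0507) with iR and D3. The second SLC7A11 value passed with the replicate block (adjusted p = 0.041), with only the compared groups (0.00984), with voom (0.0319) and without iR_KOA_D3_NE replicate 3 (-0.284).

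Of the neutral exchangers, SLC1A4 was higher in the knockout by 0.77 (adjusted p = 2.31e-10) with iR, at 8.44 ± 0.13 against 4.53 ± 0.24 FPKM (SD, n = 3 each), and by 0.32 (adjusted p = 0.000184) with iR and D3. SLC1A5 did not pass with iR (0.04, 95% interval -0.08 to 0.17) and was lower with iR and D3 (-0.30, adjusted p = 9.36e-05). The SLC1A5 to SLC1A4 ratio of FPKM therefore stood at 21.6 ± 0.66 in iR_WTA_NE and 11.9 ± 0.34 in iR_KOA_NE (SD, n = 3 each). SLC38A2 was slightly higher in the knockout, by 0.18 (adjusted p = 0.0303) and 0.24 (adjusted p = 0.00419). The first SLC38A2 call ended without iR_KOA_NE replicate 1 (0.127) or 2 (0.171), iR_WTA_NE replicate 1 (0.178) or 3 (0.169), and with no filter on low values (adjusted p = 0.0635). SLC6A9 was higher by 0.51 with iR (adjusted p = 3.58e-06) and by 0.08 with iR and D3, which did not pass (adjusted p = 0.386) except under quantile normalization (0.18, adjusted p = 0.0479).

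**Figure D4:**
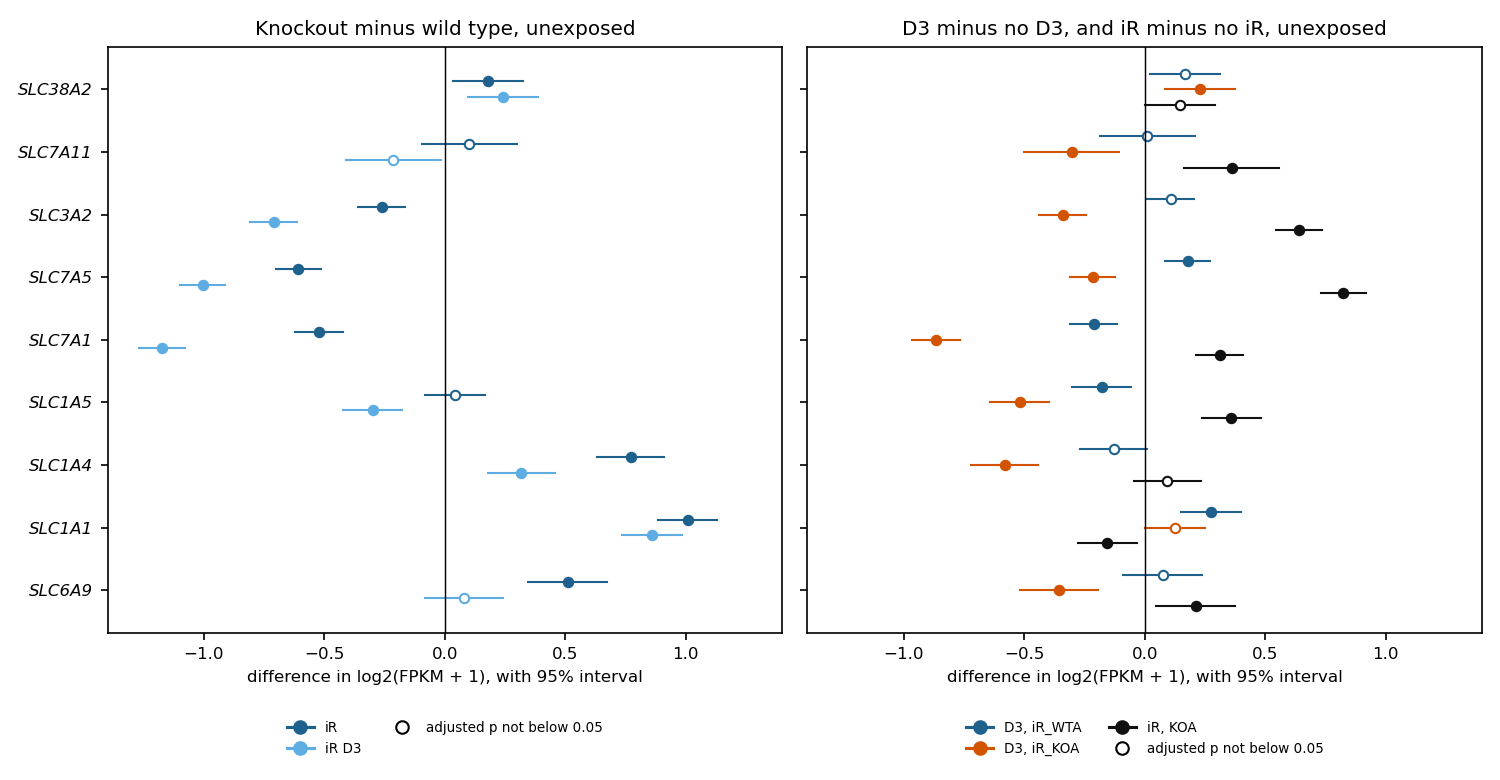
Differences in log2(FPKM + 1) with 95% intervals of the limma fit for 9 members in unexposed cells: knockout minus wild type (left), and D3 minus no D3 in each genotype with iR minus no iR in KOA (right). Open points have an adjusted p not below 0.05; SLC1A3 lies off this scale, at -4.68 and -4.44 for genotype, and is left out. SLC7A5 and SLC7A1 lie furthest to the left in the genotype panel and SLC1A1 furthest to the right.

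D3 had little common direction in the wild type and lowered most members in the knockout. In iR_WTA 2 members were higher and 3 lower with D3, where 22.3% of all genes were called higher and 26.3% lower. In iR_KOA 1 was higher and 7 lower, against 19.2% and 34.5%, with differences taken as D3 minus no D3. The steepest drop was SLC7A1, from 10.6, 10.8 and 10.7 to 5.32, 5.69 and 5.28 FPKM in the knockout (-0.87, SE 0.05, adjusted p = 6.7e-14), against -0.21 in the wild type (adjusted p = 0.000714). SLC1A4 went from 8.32, 8.58 and 8.41 to 5.34, 5.47 and 5.12 FPKM in the knockout (-0.58, adjusted p = 6.91e-08) and SLC1A5 from 97.8, 101 and 104 to 71.7, 71.8 and 66.6 FPKM (-0.52, adjusted p = 6.15e-08). In the wild type SLC1A4 differed by -0.13, which did not pass, and SLC1A5 by -0.18 (adjusted p = 0.0158), a call that ended without iR_WTA_NE replicate 1 (-0.157) or 3 (-0.167) and under quantile normalization (-0.0932). SLC3A2 and SLC7A5 fell in the knockout (-0.34 and -0.22, adjusted p = 1.28e-06 and 0.000243), while in the wild type SLC7A5 rose by 0.18 (adjusted p = 0.00199) and the SLC3A2 difference of 0.11 was not called (adjusted p = 0.0601), though it passed under both other scalings (0.13 and 0.153). SLC6A9 fell in the knockout (-0.36, adjusted p = 0.000441).

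The direct test of D3 in the knockout against D3 in the wild type passed for 7 members, where 17.5% of all genes were called. It gave -0.65 for SLC7A1, -0.45 for SLC1A4, -0.45 for SLC3A2, -0.43 for SLC6A9, -0.39 for SLC7A5 and -0.34 for SLC1A5, all more negative in the knockout. The seventh, SLC1A3 (0.24), mirrors its fall with D3 in the wild type (-0.24, adjusted p = 9.51e-06) beside a knockout that has almost no reads. For SLC1A3 this test therefore cannot show whether the D3 response depends on genotype. SLC7A11 fell with D3 in the knockout (-0.30, adjusted p = 0.00959), with the 2 groups overlapping. That SLC7A11 call ended under both other scalings (-0.209, adjusted p = 0.0623, and -0.222, adjusted p = 0.0597) and without iR_KOA_D3_NE replicate 1 (-0.247). The SLC7A11 interaction was -0.31 (adjusted p = 0.117) and passed without iR_KOA_NE replicate 3 (-0.397). The members that rose with D3 were SLC38A2 in the knockout (0.23, adjusted p = 0.00796), a call that ended without iR_KOA_NE replicate 3 (0.172), and in the wild type SLC1A1 (0.27, adjusted p = 0.000533) and SLC7A5. SLC38A2 in the wild type (0.17, adjusted p = 0.0525) and SLC1A1 in the knockout (0.13, adjusted p = 0.0794) missed the threshold in the same direction, and both passed under both other scalings (adjusted p = 0.0304 and 0.00699, and 0.00848 and 0.0177).

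The iR comparison set iR_KOA_NE against KOA_NE, and 6 members were higher and 1 lower with iR, where 18.7% of all genes were called higher and 19.8% lower. SLC7A5 rose from 175, 177 and 175 to 302, 308 and 326 FPKM (0.82, SE 0.05, adjusted p = 3.45e-13), and its heavy chain SLC3A2 from 177, 185 and 187 to 279, 283 and 296 FPKM (0.64, adjusted p = 9.91e-11). SLC7A11 (0.36, adjusted p = 0.00429), SLC1A5 (0.36, adjusted p = 4.16e-05) and SLC7A1 (0.31, adjusted p = 1.56e-05) rose as well, with no overlap between the groups. SLC6A9 (0.21, adjusted p = 0.036) and SLC1A1 (-0.15, adjusted p = 0.0449) were near the threshold. The SLC6A9 call ended without KOA_NE replicate 2 (0.209) or 3 (0.174) and without iR_KOA_NE replicate 1 (0.19) or 3 (0.205), and the SLC1A1 call ended without KOA_NE replicate 1 (-0.133) or 2 (-0.151) and without iR_KOA_NE replicate 1 (-0.107). SLC38A2 and SLC1A4 did not pass (0.15 and 0.09), although SLC38A2 did without iR_KOA_NE replicate 3 (0.205).

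Tests of whether the exposure response itself depended on background passed for few members. They called 2 of 10 for iR against no iR in the knockout, SLC38A2 and SLC3A2, where 5.08% of all genes were called. For genotype they called 1 of 10 with iR and 1 of 10 with iR and D3, where 0.538% and 2.38% of all genes were called. Both were SLC1A3, whose values (-0.49 and -0.72) are the wild-type rise with its sign turned, because the knockout lies at the floor: with voom on recovered reads they became 0.98 and -0.184 and neither passed. These 2 calls therefore cannot show whether the response depends on genotype. For D3 they called 0 of 10 in the knockout, where 4.14% of genes were called and where 2 members had an unadjusted p below 0.05, SLC38A2 (0.00266) and SLC3A2 (0.0197). In the tests within the knockout, SLC1A3 is among the 10 but had too few reads to be called. With voom 1 member was called there. In the wild type D3 tests called 1 of 10, SLC1A3, against 1.67% of all genes. KOA_NE, iR_KOA_NE and iR_WTA_NE each serve in several of these comparisons, so the members' values in them are not independent.

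Other genes of amino acid transport were counted from lists chosen with earlier results of these data known. In the 5 exposure comparisons 11.4% to 18.8% of all genes tested were called higher and 17.2% to 27.8% lower, and the counts below are to be read against those shares. Of 3 other SLC1 genes 2 were in the table and 0 of these passed the filter, with the astrocyte glutamate importer SLC1A2 at or below 0.045 FPKM. Of 11 other SLC3 and SLC7 genes 3 were tested, and 0 rose and 0 to 2 fell with exposure in the 5 backgrounds. SLC7A2, a cationic carrier like SLC7A1, fell in the 3 knockout backgrounds (-0.18, -0.37 and -0.17). Of 5 tested SLC38 relatives of SLC38A2, 1 to 2 fell and 0 to 1 rose: SLC38A10 fell in all 5 backgrounds (-0.39 to -0.19), and SLC38A1, the closest sodium-coupled glutamine importer, passed in iR_KOA_D3 (0.28) and stood between -0.02 and 0.12 elsewhere. Of 2 tested SLC6 relatives, the taurine importer SLC6A6 fell in all 5 (-0.64 to -0.28), and SLC6A15 fell in iR_KOA and iR_WTA (-0.22 and -0.28). Of 7 tested other plasma membrane and lysosomal transporters 1 to 2 rose and 0 to 2 fell, with SLC36A1, a lysosomal exporter, higher in 4 backgrounds. Of 8 tested mitochondrial carriers 0 rose and 2 to 5 fell, including both aspartate-glutamate carriers, SLC25A12 (-0.31 to -0.26) and SLC25A13 (-0.25 to -0.17), in all 5 backgrounds. The lower counts of 2 and 3 of these 8 are near the share of all genes called lower. The median difference of the mitochondrial carriers lay between -0.18 and -0.08, beside -0.05 to -0.03 for all genes tested.

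Enzymes that use what these transporters carry were called in both directions. Of 15 tested genes of glutamate, glutamine and serine metabolism 2 to 4 rose and 2 to 4 fell, with medians of -0.05 to 0.06. In the same comparisons 11.4% to 18.8% of all genes tested were called higher and 17.2% to 27.8% lower, so calls in both directions were common. PSPH, the last enzyme of serine synthesis, rose in all 5 backgrounds, from 0.31 to 0.36, while the glutamine synthetase GLUL fell in all 5, from -0.40 to -0.27. ASNS, the asparagine synthetase, stayed at 0.0587 to 0.50 FPKM and was not tested. Of 8 tested glutathione genes 1 to 2 rose and 0 to 3 fell, with medians of -0.10 to -0.03. GCLC, the catalytic subunit of the first enzyme of glutathione synthesis, was called lower in 4 backgrounds (-0.45 in KOA) and not in iR_KOA (-0.12, adjusted p = 0.0647). CHAC1, which breaks glutathione down, had exposed means of 1.01 to 2.36 FPKM and unexposed means of 0.108 to 0.534 FPKM. It passed the filter through exposed libraries, so its difference is a description, and it is among the glutathione genes counted as higher. SLC7A11 thus fell beside GCLC in the 4 backgrounds where both were called.

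Of 19 tested regulators of transporter genes, 11 to 13 were higher and 3 to 6 lower in the 5 backgrounds, against 11.4% to 18.8% of all genes called higher and 17.2% to 27.8% lower, with medians of 0.21 to 0.58. The list was chosen with earlier results known, so this is a description. ATF4 was called higher in 4 backgrounds, by 0.85 in KOA, 0.57 in iR_KOA_D3, 0.27 in iR_WTA and 0.17 in iR_WTA_D3, and not in iR_KOA (0.11, adjusted p = 0.131). DDIT3, the stress factor CHOP, rose by 1.19 to 2.04, EIF2AK3 by 0.73 to 1.23 and CEBPB by 0.74 to 0.96. NFE2L2, a factor of the oxidative stress response, rose by 0.38 to 1.15. Without exposure, ATF4 fell with D3 in the knockout (-0.92, adjusted p = 4.01e-13) and rose in the wild type (0.14, adjusted p = 0.0457). It rose with iR (0.82, adjusted p = 1.85e-11). SLC7A1, SLC3A2, SLC7A5, SLC1A5, SLC7A11 and SLC6A9 also fell with D3 in the knockout and rose with iR. Other values went differently. SLC7A1 and SLC1A5 fell with D3 in the wild type (-0.21 and -0.18), and SLC38A2 rose with D3 in the knockout (0.23). With iR, SLC1A4 was not called (0.09) and SLC1A1 was lower (-0.15). The part of any regulator in these differences was not tested. Of 24 tested genes of amino acid sensing 4 to 8 rose and 5 to 8 fell, with medians of -0.11 to 0.00, and SESN2, CASTOR1 and DDIT4 rose in all 5 backgrounds, by 0.28 to 0.97, 0.26 to 0.63 and 0.33 to 1.00.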

How the data were processed

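RNA of 30 A549 libraries (10 groups of 3) was sequenced after oligo(dT) selection and random priming, per the labels' protocols. The authors deposited one table of FPKM values for 26801 genes. fastp, HISAT2, HTSeq and GRCh38 are named in the submitters' processing notes, without versions, and no strand setting is named there. The table has 6 more value columns, with EX_A549 or NC_A549 in their names, left out because these names fit none of the labelled samples.

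FPKM steps gave whole reads for 26801 of 26801 genes within 0.01 reads, taking for each gene the smallest length that made its values whole, so this share is partly built in and low genes may be understated. Genes with 1 FPKM in at least 3 libraries (12086) were tested on log2(FPKM + 1) with limma 3.58.1 in R 4.3.3, with a mean-variance trend, 10 group means in one fit and 20 residual degrees of freedom. P-values are two-sided, with Benjamini-Hochberg adjustment within each of 16 comparisons, 6 of them interactions, and a threshold of 0.05. The fit was also run on simulated reads with the same spread setting for every gene. That run does not measure error rates in these data.

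Alternatives were a pseudocount of 0.1, no filter, median-of-ratios scaling, quantile normalization, only the compared groups, a replicate block, leaving out each replicate, and limma's voom on the recovered reads, the last chosen after seeing the data. Deviations from the group means correlated weakly between same-numbered exposed and unexposed libraries in iR_KOA_D3 (0.115 to 0.168) and KOA (0.065 to 0.119). In the other backgrounds the correlations had both signs, from -0.239 in iR_KOA to 0.306 in iR_WTA_D3. The text names all 10 members, RSRP1 and genes of 10 lists. The members and lists were chosen with earlier results of these data known. Sequences and positions are RefSeq's. Read ratios carry exact 95% intervals for counting error only.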

Additional observations from a re-analysis of the deposited data

Results flagged for a closer look

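Tests of whether an effect depended on the background passed for 12 member results, each from an interaction in the limma fit (adjusted over all genes). The response of SLC38A2 to exposure differed between iR_KOA and KOA by -0.8131 (adjusted p = 6.05e-06), and that of SLC3A2 by -0.4314 (adjusted p = 0.00014): both exposure differences were smaller with iR. The response to D3 in unexposed cells differed between knockout and wild type by -0.654 for SLC7A1 (adjusted p = 9.92e-08), -0.4482 for SLC3A2 (2.28e-05), -0.3947 for SLC7A5 (6.45e-05) and -0.4533 for SLC1A4 (0.00124). It differed by -0.3406 for SLC1A5 (adjusted p = 0.00552) and -0.4312 for SLC6A9 (0.00735).

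The other 4 concern SLC1A3, whose knockout libraries held 14 reads in all. Exposure by genotype was -0.4902 with iR (adjusted p = 6.83e-06) and -0.7165 with iR and D3 (7.92e-09), D3 by genotype was 0.2362 (0.00227), and exposure by D3 in the wild type was 0.2124 (0.0389). The first 3 set a wild-type change against a knockout at the floor of the log2(FPKM + 1) scale, so they cannot show a dependence on genotype.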

How the results depend on the processing

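Of 160 member results (10 members in 16 comparisons), 157 kept their direction and side of the threshold with the replicate block, 155 with no filter on low values, 155 with a pseudocount of 0.1, 152 with voom on recovered reads, 151 with median-of-ratios scaling, 148 with only the compared groups and 145 with quantile normalization. Of 1320 values with 1 library left out, 1193 kept both, 65 changed sign, 51 lost and 11 gained a call. The same-numbered libraries correlated at 0.065 to 0.119 in KOA, -0.239 to 0.259 in iR_KOA, -0.17 to 0.042 in iR_WTA and -0.09 to 0.306 in iR_WTA_D3. The replicate block added 3 calls, SLC7A11 by genotype with iR and D3 (-0.214), SLC38A2 with D3 in the wild type (0.168) and SLC38A2 exposure by D3 in the knockout (0.334), the last taking that comparison from 0 to 1 member called, and it changed no other member call.

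With only the compared groups, genes called went from 4272 to 2131 for exposure in iR_KOA, 500 to 158 and 202 to 52 for exposure by D3 in knockout and wild type, and 65 to 17 and 288 to 106 for exposure by genotype with iR and with iR and D3. Members called went from 4 to 2 for exposure in iR_KOA and from 1 to 0 for exposure by D3 in the wild type. A pseudocount of 0.1 took exposure by genotype with iR from 65 to 40 genes and from 1 to 0 members, and exposure by D3 in the wild type to 0 members. Quantile normalization left 3 of 5 members called for exposure in iR_KOA_D3. Voom called 1 member for exposure by D3 in the knockout and 0 for exposure by D3 in the wild type and by genotype in both settings.

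Signs turned where values were near 0 or SLC1A3 was at its floor; the cause was not tested. Median-of-ratios scaling and quantile normalization gave 0.015 and 0.0148 for SLC3A2 exposure in iR_KOA, and the former -0.00604 for SLC1A1 exposure by D3 in the knockout. Quantile normalization gave 0.00694 for SLC1A1 exposure by D3 in the wild type, 0.00026 for SLC7A1 exposure in KOA and -0.0274 for SLC7A5 exposure by D3 in the knockout. Voom gave -0.257 for SLC1A3 D3 by genotype and 0.98 for SLC1A3 exposure by genotype with iR.

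With 1 library left out, genes called ranged from 30 to 74 and 170 to 504 for exposure by genotype with iR and with iR and D3, 245 to 910 and 88 to 506 for exposure by D3 in knockout and wild type. Members called ranged from 1 to 5 for exposure in iR_KOA, from 3 to 5 for exposure in iR_KOA_D3, from 1 to 2 for exposure by genotype with iR, from 1 to 2 for exposure by genotype with iR and D3, from 0 to 1 for exposure by D3 in the knockout, from 0 to 2 for exposure by D3 in the wild type. SLC6A9 ranged from -0.0355 to 0.0403 (exposure in KOA), from -0.0491 to 0.0842 (exposure in iR_WTA), from -0.0259 to 0.134 (exposure by genotype with iR and D3), from -0.0768 to 0.0845 (exposure by D3 in the knockout). SLC7A1 ranged from -0.0499 to 0.0278 (exposure in KOA), from -0.0365 to 0.0607 (exposure by genotype with iR), from -0.0314 to 0.0427 (exposure by D3 in the wild type). SLC1A4 ranged from -0.0596 to 0.0372 (exposure in iR_KOA), from -0.1 to 0.102 (exposure by D3 in the wild type). SLC3A2 ranged from -0.0673 to 0.0624 (exposure in iR_KOA), from -0.0923 to 0.0374 (exposure by genotype with iR). SLC7A5 ranged from -0.00707 to 0.0243 (exposure in iR_WTA), from -0.00967 to 0.0665 (exposure by D3 in the knockout). SLC7A11 ranged from -0.0369 to 0.0853 (D3 in the wild type), from -0.0936 to 0.0667 (exposure by genotype with iR), from -0.0438 to 0.165 (exposure by genotype with iR and D3), from -0.0721 to 0.0908 (exposure by D3 in the knockout), from -0.168 to 0.0329 (exposure by D3 in the wild type), from -0.0419 to 0.118 (exposure by iR). SLC1A1 ranged from -0.0387 to 0.0504 (exposure by D3 in the knockout). SLC1A5 ranged from -0.121 to 0.00627 (exposure by D3 in the wild type), from -0.0695 to 0.0622 (exposure by iR).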

Other observations

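Correlations between members over the 30 libraries are given as Pearson's r on log2(FPKM + 1). The libraries share 10 groups and the genotype split, so these are descriptions. SLC3A2, SLC7A5, SLC7A1 and SLC1A3 correlated with each other at r of 0.77 to 0.94, highest for SLC3A2 and its light chain SLC7A5, while r was 0.28 for SLC3A2 and its other light chain SLC7A11. SLC7A1 followed SLC1A5 (r = 0.83), SLC7A11 ran against SLC38A2 (r = -0.74), and the glutamate importers SLC1A1 and SLC1A3 ran against each other (r = -0.96).

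The genes tested that were most like each member over the 30 libraries were as follows. MARS1 (r = 0.940) and CARS1 (r = 0.916) led for SLC1A5, and IARS1 (r = 0.977) came second after YBX1 (r = 0.985) for SLC7A1. HNRNPC (r = 0.988) and NPC1 (r = 0.976) led for SLC7A5, and OAZ1 (r = 0.959) and NPC1 (r = 0.948) for SLC3A2. For SLC38A2 they were GJA1 (r = 0.971) and SYNPO (r = 0.959), for SLC7A11 UBA3 (r = 0.925) and RASA1 (r = 0.918), for SLC1A4 CLU (r = 0.934) and GDF15 (r = 0.914), and for SLC6A9 TOR3A (r = 0.875) and MAPK11 (r = 0.873). For SLC1A1 they were CCDC184 (r = 0.986) and TTC39A (r = 0.985), and for SLC1A3 CAVIN3 (r = 0.994) and ZNF799 (r = 0.994), where the genotype split carries the correlation.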
